A study of Caenorhabditis elegans with 8 samples.

Results

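The potassium channel genes of the nematode Caenorhabditis elegans were followed through loss of seip-1, the worm gene for seipin, an endoplasmic reticulum protein of lipid droplet assembly. Members were the genes whose symbol begins with twk, kqt, kvs, shk, shl, shw, slo or irk followed by a number, which makes 8 families. The reference annotation held 61 such genes. The array carried a probe for 60 of them, out of 20008 named genes, and 59 were measured, out of 16832 genes. Measured means that both arrays of a group, in any of the 4 groups, read a probe of the gene as well above background. irk-3 had no matched probe, and the only probe of twk-4 was not measured. The 59 measured members were read by 113 measured probes. They were 43 twk, 5 kvs, 3 kqt, 2 shw, 2 slo and 2 irk genes, with shk-1 and shl-1.

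The study measured RNA on 1-colour Agilent arrays in 4 groups of 2 samples each. Wild-type embryos and seip-1 knockout embryos were freed by hypochlorite from gravid adults grown for 52 hours after L1, the first larval stage. Wild-type and seip-1 knockout young adults were collected whole at 52 hours after L1 feeding. The wild type was the laboratory strain N2, the labels name no allele for the knockout, and each sample was total RNA from a large pooled population. Adults of this age carry germ line and embryos, so their RNA includes both. The labels do not say that samples of a group came from separate cultures, so the p-values cover the spread among the samples as hybridised, which may be technical.

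Potassium channels let potassium ions leave or enter a cell and so set its resting potential and end its electrical signals. The twk genes encode tandem-pore leak channels, which pass current near rest. The kqt, kvs, shk, shl and shw genes encode voltage-gated channels of the KCNQ type and of the Shaker-related types, slo genes encode large-conductance channels gated by voltage and intracellular ions, and irk genes encode inward rectifiers. In the worm these channels act mostly in neurons, muscle and other excitable cells, and some act in the intestine.

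Signals are given here as the level, a probe's processed signal in percent of the 75th percentile of all probes on its array. Each gene was read by its brightest measured probe. Levels are compared across arrays for the same probe and never between probes. Differences are on the log2 scale with the standard error of a linear model (limma) fitted to the 4 groups over all measured genes, and a gene was called where its Benjamini-Hochberg adjusted p was under 0.05.

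The 8 arrays had 65.7% to 75.5% of their probes well above background and no saturated spot, and their 75th percentiles ran from 1387 to 2745 processed signal units. The embryo arrays shared 1 slide and 1 scan and the adult arrays another, so stage and slide cannot be told apart, whereas the genotypes were compared within a slide. seip-1 had levels of 237% and 263% in wild-type embryos and of 117% and 129% in wild-type adults. All 4 knockout arrays had its probe at background, which made it at least 311-fold lower in knockout embryos and at least 114-fold lower in knockout adults.

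**Figure D1:**
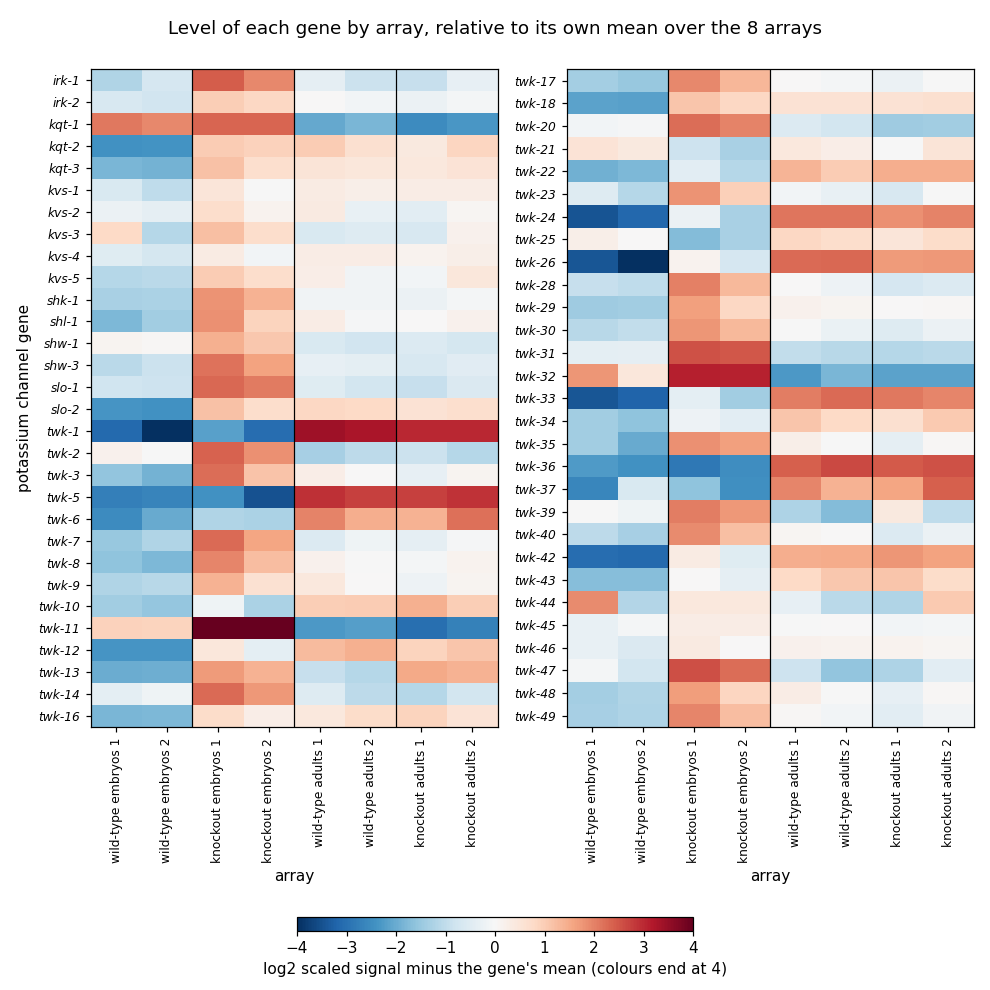
Heat map of the 59 measured potassium channel genes (rows, 2 panels) on the 8 arrays (columns). Colour gives the log2 scaled signal minus the gene's own mean over the 8 arrays, blue for below and red for above, with colours ending at 4; the knockout embryo columns are the reddest for 40 genes and the wild-type embryo columns the bluest for 42.

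Over the 59 measured members, the median level was 4.05% and 3.76% on the wild-type embryo arrays and 14.8% and 12.4% on the knockout embryo arrays. It was 11.6% and 9.84% in wild-type adults and 8.30% and 10.6% in knockout adults. Wild-type embryos were thus the group in which the members stood lowest, and the medians of the other 3 groups lay closer together. Both arrays of a group read 39 members as well above background in the wild-type embryos and 56 in the knockout. In adults these numbers were 48 and 49. Detection over all probes also differed between the embryo genotypes. It was 65.7% and 66.6% on the wild-type embryo arrays and 75.5% and 71.9% on the knockout embryo arrays. The map of levels by array shows the same order gene by gene. Knockout embryos had the highest mean of the 4 groups for 40 members, or 67.8%, against 29.2% of all measured genes. Among these 40 are irk-1, kvs-3, twk-7, twk-20, twk-23, twk-39, twk-44 and twk-47. They counted as measured through the knockout embryos alone, so the rule for measured genes favours that outcome for them. Wild-type embryos had the highest mean for 1 member, twk-21, or 1.69%, against 33.1% of all measured genes. Under other scalings and the normexp correction the members highest in knockout embryos numbered 33 to 40 (55.9% to 67.8%). Over all measured genes these shares were 22.6% to 29.7%. Members highest in wild-type embryos numbered 8 (13.6%, beside 45.8% of all genes) with median scaling and 6 (10.2%, beside 32.8%) with quantile normalization. They numbered 3 (5.08%, beside 36.1%) with normexp correction and 2 (3.39%, beside 35.2%) with the median over probes above background.

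Most of the potassium channel genes were higher in knockout embryos than in wild-type embryos. Of 56 tested members, 49 were higher in knockout embryos (87.5%, beside 44.6% of all genes tested) and 2 were lower (3.57%, beside 40.3%). The median difference was 2.39 on the log2 scale over the members and 0.15 over all 15397 genes tested. The arrays of the groups did not overlap, with the knockout above, for 51 members (91.1%, beside 49.2% of all genes). Of the 49 that rose, 35 did so at least 4-fold and 14 at least 8-fold by the fitted difference. Both counts include members at background in wild-type embryos, whose fitted sizes depend on the background. There were 10 such members among the 49, with lower bounds from 2.24-fold to 6.12-fold. These 10 entered the test only through the knockout embryos, the group in which they are high. So did shl-1, twk-1, twk-6, twk-33 and twk-35, each with 1 wild-type embryo array above background. Over probes above background on all arrays, the median difference was 2.56 over the members and -0.18 over all genes. The share of all genes at these sizes is not given here. In whole-animal RNA, fewer cells of a type and less RNA per cell cannot be told apart, and neither can their opposites. The time given for the embryo samples is that of the gravid adults, and the labels give no age for the embryos. Genotype and embryo age therefore cannot be told apart in this comparison.

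The scaling of the arrays moved these differences. With the 75th percentile the median difference in embryos was 0.15 over all genes and 2.39 over the members, on the log2 scale. With each array's median in its place these medians were -0.90 and 1.34, and with quantile normalization 0.02 and 1.54. They were -0.15 and 2.10 with the median over probes above background, and -0.10 and 0.93 with normexp correction. Of the 51 members called in either direction (91.1%, beside 84.9% of all genes), kvs-1, kvs-4, twk-45, twk-46 and twk-6 turned to the other sign with median scaling, kvs-4, twk-45 and twk-46 with quantile normalization, and twk-34 and twk-6 with the normexp background correction.

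Markers of whole tissues moved with the members in embryos. All 12 listed muscle genes were higher in knockout embryos, with a median difference of 2.93 and a summed level of 17008% to 21983% against 2845% to 2863% in wild-type embryos. All 8 intestine genes were higher (median 2.78), their summed level being 7817% to 10208% against 1451% to 1475%. Among 14 neuron genes 11 were higher and 2 lower (median 2.65), and the summed level was 4025% to 4889% against 3137% to 3363%. Much of that sum was snb-1, which fell, at 2208% and 2416% on the wild-type arrays and 1813% and 1690% on the knockout arrays. The 15 germ line, oocyte and early embryo genes were all lower (median -2.45), with a summed level of 4226% to 5028% against 20605% to 23782%. None of these 49 marker genes was at background in a group, so no defining marker was absent from embryos or adults of either genotype. The parts of the tissue mixture and of embryo age in the members' differences were not tested.

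**Figure D2:**
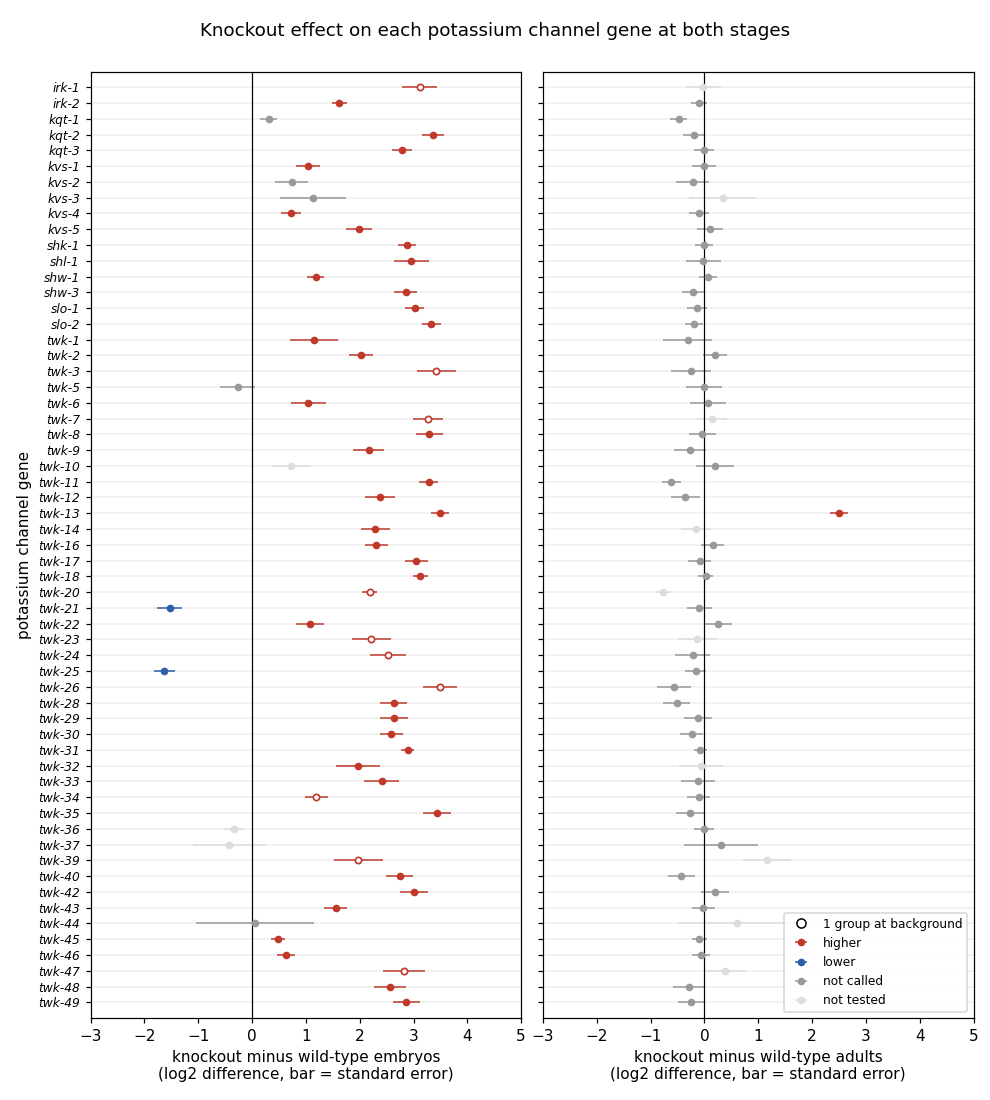
Knockout minus wild-type difference of each measured potassium channel gene in embryos (left) and adults (right), in log2 units with standard error bars; open circles mark calls with 1 group at background. In embryos 49 genes lie to the right and are called and 2 to the left; in adults 1 gene, twk-13, is called.

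Among the leak channels, 36 of 40 tested twk genes rose in knockout embryos. The largest rise among genes seen in both groups was that of twk-13, whose wild-type arrays read 6.75% and 6.91% and whose knockout arrays read 85.9% and 69.1%, a difference of 3.50 ± 0.17 (adjusted p = 3.23e-05). twk-11 went from 33.6% and 33.0% to 368% and 286%, a difference of 3.28 ± 0.18 (adjusted p = 3.23e-05). For each of these genes the lower knockout array stood far above both wild-type arrays.

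twk-18 encodes a leak channel of body wall muscle whose overactive alleles paralyse the worm. Its levels rose from 20.5% and 20.03% to 194% and 162%, by 3.13 ± 0.14 (adjusted p = 3.23e-05). twk-35 went from 1.60% and 1.04% to 14.8% and 13.2%, a difference of 3.43 ± 0.26 (adjusted p = 5.34e-05), with 1 of the wild-type arrays well above background. The rises of twk-8, twk-17 and twk-42 were 3.29 ± 0.25, 3.06 ± 0.22 and 3.01 ± 0.26. The groups did not overlap for any of these 5 genes.

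A further set of leak channel genes was seen in knockout embryos and at background on both wild-type embryo arrays. For these the difference is a lower bound, the knockout mean over the lowest signal counted as above background. twk-47 was at least 6.12-fold higher, at 7.22% and 5.69% in knockout embryos. twk-3 was at least 5.18-fold higher (7.67% and 3.62%), and twk-7 at least 4.58-fold higher (5.94% and 3.67%). The bounds were 3.34-fold for twk-39 and 3.18-fold for twk-24. With normexp correction neither twk-39 nor twk-24 was called (adjusted p = 0.177 and 0.158), and with median scaling twk-39 was not (adjusted p = 0.0840). The other members called this way were twk-23, twk-26, twk-20, twk-34 and irk-1, with bounds from 2.24-fold to 2.92-fold, of which twk-34 changed sign under normexp correction.

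Both falls in embryos were those of leak channel genes. twk-25 went down from 35.5% and 30.9% to 9.14% and 12.4% and fell by 1.63 ± 0.20 on the log2 scale (adjusted p = 0.000297). twk-21 read 6.66% and 5.98%, then 2.57% and 1.86%, and fell by 1.53 ± 0.24 (adjusted p = 0.000904). Each group's arrays lay apart for both genes, and both kept their direction under every scaling tried. twk-22, whose locus name T01B4.2 follows that of twk-21, T01B4.1, rose by 1.07 ± 0.26 (adjusted p = 0.00702), from 1.59% and 1.73% to 4.50% and 2.70%. The tested leak channel genes that were not called were twk-5, at 2.33% and 2.47% against 2.89% and 1.38%, and twk-44, whose wild-type arrays differed widely at 3.02% and 0.357%. twk-10, twk-36 and twk-37 were at background on all 4 embryo arrays and were not tested there.

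Among the KCNQ-type genes, kqt-2 and kqt-3 are known from the intestine, where they bear on the rhythm of calcium signals. kqt-2 rose from 4.51% and 4.64% to 48.4% and 45.5%, by 3.36 ± 0.21 (adjusted p = 3.46e-05). kqt-3 rose from 5.44% and 5.20% to 43.6% and 31.01%, by 2.79 ± 0.19 (adjusted p = 4.00e-05). kqt-1, known from pharyngeal muscle and neurons, read 48.8% and 42.4% on its wild-type arrays, 56.4% and 56.6% on its knockout arrays, and was not called (0.31 ± 0.16, adjusted p = 0.105). Of the 3 KCNQ-type genes it was the one without a called change, although its arrays did not overlap.

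The 4 Shaker, Shal and Shaw genes rose as well. shk-1, the worm Shaker channel of neurons and body wall muscle, went from 9.83% and 9.94% to 83.2% and 63.2% (2.88 ± 0.17, adjusted p = 3.28e-05). shl-1, the Shal channel that carries fast transient current, went from 1.12% and 1.49% to 13.8% and 7.26% (2.96 ± 0.32, adjusted p = 0.000206), with 1 wild-type array well above background. The Shaw-type genes were shw-3, with a rise of 2.85 ± 0.21 from 3.26% and 3.77% to 30.7% and 20.9%, and shw-1, with a rise of 1.18 ± 0.17 from 19.02% and 18.2% to 47.4% and 37.6%. Their adjusted p-values were 5.31e-05 and 0.000581, and for neither gene did the groups overlap.

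Of the 5 kvs genes, also voltage-gated, 3 were called higher. kvs-5 rose by 1.98 ± 0.24 (adjusted p = 0.000313), from 9.25% and 9.66% to 41.6% and 33.3%. kvs-1 rose by 1.04 ± 0.22 with the 75th percentile scaling and changed sign with median scaling, and kvs-4 rose by 0.72 ± 0.19 and changed sign with both median scaling and quantile normalization. kvs-2 (0.73 ± 0.31, adjusted p = 0.0592) and kvs-3 (1.13 ± 0.62, adjusted p = 0.128) were not called. For kvs-3 the groups overlapped, since its wild-type arrays read 2.44% and 0.635% and its knockout arrays 3.20% and 2.31%.

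Both slo genes and both measured irk genes were called higher. slo-1, the calcium-activated channel that dampens transmitter release, went from 19.5% and 18.9% to 168% and 144%, by 3.02 ± 0.18 (adjusted p = 3.29e-05). Its relative slo-2 went from 10.6% and 10.2% to 121% and 89.4%, by 3.33 ± 0.17 (adjusted p = 3.23e-05). irk-2 rose by 1.62 ± 0.14 (adjusted p = 9.26e-05), from 2.20% and 2.02% to 6.91% and 6.08%. irk-1, the inward rectifier known from the egg-laying motor neurons, was at background in wild-type embryos, read 2.92% and 2.06% in knockout embryos and was at least 2.41-fold higher.

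The knockout embryo arrays differed from each other in one direction. The first stood above the second for 49 of the 49 members that rose. Over all probes too, the first had more well above background (75.5% against 71.9%) and a higher median signal (265 against 214 units). The share of all genes with this order is not given here, so the order is not shown to be particular to the members. Without the first, 46 members were called higher and 3 lower, and without the second 49 and 2, so the count did not rest on either array.

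The other genes of the same physiology were read from lists of related genes. Among 11 other potassium channel genes, such as the leak channels sup-9 and unc-58 and the small-conductance kcnl genes, 10 were higher in knockout embryos (median 2.65). unc-103, the worm ERG-type channel, was not called, at 2.48 ± 1.25 (adjusted p = 0.103). Its embryo arrays did not overlap, at 0.929% and 1.23% in the wild type against 6.76% and 5.31% in the knockout. Its wild-type adult arrays differed widely, at 0.692% and 10.4%, and the standard error comes from the fit to all 4 groups. sup-9 rose by 2.71 ± 0.19 (adjusted p = 4.23e-05) and unc-58 by 3.11 ± 0.26. Of 12 accessory and trafficking genes, 10 rose and 1 fell (median 2.36). The one that fell was erg-28, which helps traffic SLO-1 out of the endoplasmic reticulum, at -1.48 ± 0.22 (adjusted p = 0.000690), the direction opposite to that of slo-1. The accessory gene ctn-1, which localises SLO-1 in muscle, was not called at 0.24 ± 0.22. Of 14 measured calcium, sodium-leak and cyclic nucleotide-gated channel genes, 13 rose (median 2.51), among them egl-19, the L-type calcium channel, by 3.21 ± 0.16 (adjusted p = 3.23e-05). The medians of the 3 lists stand close to the 2.39 of the members.

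In adults the potassium channel genes differed little between genotypes, with 1 exception. Of 49 tested members, 1 was called higher, twk-13 (2.04%, beside 0.0666% of all 15008 genes tested), and 0 were called lower by limma (beside 0.0333%). At an unadjusted p under 0.05 there were 3 members, beside 790 of all genes, or 5.26%. The median difference was -0.10 over the members and 0.00 over all genes tested. Of the 49 members 38 lay below 0 (77.6%, beside 49.8% of all genes), and for 15 the arrays of the groups did not overlap with the knockout below (30.6%, beside 14.9%). For 3 the knockout arrays lay above (6.12%, beside 13.2%), namely twk-13, twk-22 and twk-42. The 10 members not tested in adults, at background on at least 1 array of each adult group, were irk-1, kvs-3, twk-7, twk-14, twk-20, twk-23, twk-32, twk-39, twk-44 and twk-47.

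After twk-13, the members with the smallest p-values were lower in knockout adults and none passed the adjustment. twk-11 read 3.61% and 3.85% on the wild-type arrays against 2.19% and 2.71% (-0.61 ± 0.18, unadjusted p = 0.0134, adjusted p = 0.588). kqt-1 read 2.70% and 3.20%, then 1.98% and 2.26% (-0.47 ± 0.16, unadjusted p = 0.0224, adjusted p = 0.729). Both had arrays that did not overlap. For twk-28 (-0.52 ± 0.24) and twk-26 (-0.56 ± 0.32) the unadjusted p was 0.0762 and 0.123.

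In adults the marker lists held no called gene. The neuron genes summed to a level of 2412% to 2450% without the knockout and 2548% to 2550% with it, the muscle genes to 41360% to 42933% and 43172% to 43524%, the intestine genes to 21702% to 22204% and 22119% to 23189%, and the germ line genes to 22372% to 26534% and 20408% to 27607%. The 3 lists of other channel and accessory genes also held 0 called genes by limma in adults, with medians of -0.07, -0.07 and -0.11.

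twk-13 (locus R04F11.4, chromosome V) was read by 3 probes, and all 3 gave the same picture. Probe A_12_P152317, the brightest, read 13.98% and 11.9% in adults of the wild type and 75.3% and 69.9% in those of the knockout. Probe A_12_P152316 read 12.0% and 10.4% against 65.8% and 59.8%. Probe A_12_P152315 read 9.41% and 7.92% against 51.4% and 46.6%. On each probe both knockout arrays stood near 5 times the brighter wild-type array or above it, the lowest knockout over the highest wild-type signal being 5.001, 4.96 and 4.95, and the highest over the lowest 6.34, 6.35 and 6.49.

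The fitted differences in adults were 2.49 ± 0.16, 2.49 ± 0.15 and 2.50 ± 0.17 for these probes in the same order. Their adjusted p-values, over all measured named probes, were 0.0143, 0.0115 and 0.0171. In the fit over genes twk-13 had an adjusted p of 0.0118, the fourth smallest p among 15008 genes, and was sixth by size among the 15 genes called. The size of the difference hardly depended on any array, at 2.38 to 2.61 with each of the 8 arrays left out. The call did depend on the arrays, since the adjusted p passed 0.05 without wild-type adult 1 (0.111), without wild-type adult 2 (0.141) and without either wild-type embryo array (0.0690 each). With the adult arrays fitted alone it was 0.372.

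**Figure D3:**
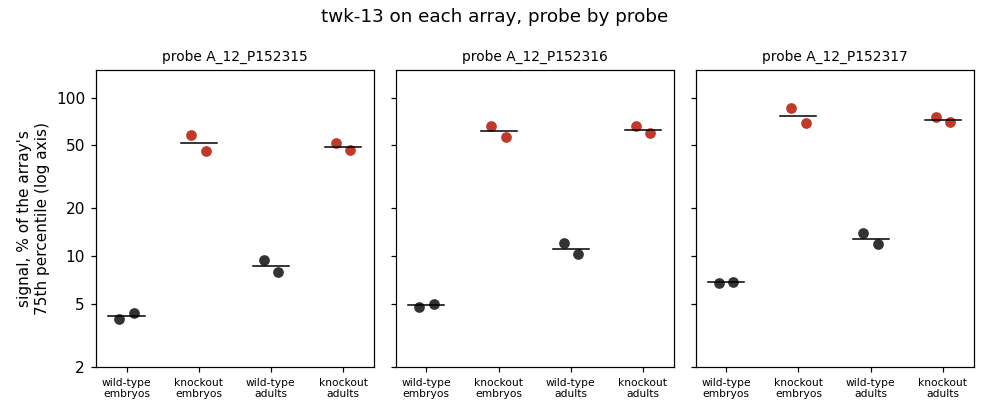
Level of twk-13 on each array for its 3 probes, in percent of the array's 75th percentile on a log axis; points are arrays and short lines are group means on the log scale. On every probe both knockout arrays lie above both wild-type arrays at each stage, and wild-type embryos are the lowest group.

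In embryos the 3 twk-13 probes read 6.75% and 6.91%, 4.81% and 4.98%, and 4.00% and 4.39% in the wild type, in the order used above. The knockout arrays read 85.9% and 69.1%, 66.2% and 56.5%, and 57.97% and 46.1%. The differences were 3.50 ± 0.16, 3.64 ± 0.15 and 3.62 ± 0.17, each with an adjusted p of 2.88e-05. The plot of twk-13 by probe shows knockout embryos and knockout adults at nearly the same level, whereas wild-type embryos stood below wild-type adults on each probe, by -0.92, -1.19 and -1.04 on the log2 scale. That stage difference of the brightest probe changed sign under quantile normalization.

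The knockout effect differed between stages for most members. As the embryo difference minus the adult difference, 46 of 59 tested members were higher (78%, beside 39% of all 16832 genes tested) and 2 were lower (3.39%, beside 33.6%). The median was 2.45 over the members and 0.10 over all genes. These medians were 1.36 and -0.98 with median scaling, and 1.56 and -0.06 with quantile normalization. They were 2.14 and -0.20 with the median over probes above background, and 0.86 and -0.21 with normexp correction. Among members seen in all 4 groups, twk-11 had the largest value at 3.90 ± 0.26 (adjusted p = 0.000256), with 3.28 in embryos and -0.61 in adults. Next among the members so limited were twk-35 (3.70 ± 0.36), kqt-2 (3.55 ± 0.29), slo-2 (3.52 ± 0.25) and twk-8 (3.33 ± 0.35). twk-3, twk-24, twk-26 and twk-34 were called higher too, but were at background in wild-type embryos, so their fitted values depend on the background and are not ranked. The members called higher also include irk-1, twk-7, twk-20, twk-23 and twk-47, which were at background in every group but knockout embryos. twk-32 was called higher with both adult groups at background. For these members the test compared no measured adult effect. The lower pair were twk-25 (-1.47 ± 0.28) and twk-21 (-1.44 ± 0.33).

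For twk-13 the difference between stages was 1.00 ± 0.23 (adjusted p = 0.00814), with 3.50 in embryos and 2.49 in adults, and it lay under the median of the members. This value depended on the scaling, at -0.080 (adjusted p = 0.766) with median scaling, 0.00043 (adjusted p = 0.999) with quantile normalization, 0.70 with the median over probes above background and 0.69 with normexp correction. The median of all genes in this comparison was itself 0.10. It became -0.98 with median scaling, -0.06 with quantile normalization and -0.20 with the median over probes above background.

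Comparison of the wild-type groups showed most potassium channel genes lower in embryos than in young adults. Of 50 tested members, 39 were lower (78%, beside 42.6% of all genes tested) and 6 higher (12%, beside 41.4%), with a median of -1.38 against 0.01 over all 16120 genes. That split became 24 lower and 10 higher with median scaling, and 23 and 10 with quantile normalization. The members' median was then -0.47 and -0.51, beside 0.92 and 0.16 over all genes. The shares of all genes called, given above, hold for the 75th percentile scaling only. With the median over probes above background the split was 39 and 6, as with the 75th percentile. Under 1 or more of these scalings or the normexp correction, irk-2, kvs-4, shw-3, twk-3, twk-13, twk-25, twk-28 and twk-46 changed sign.

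**Figure D4:**
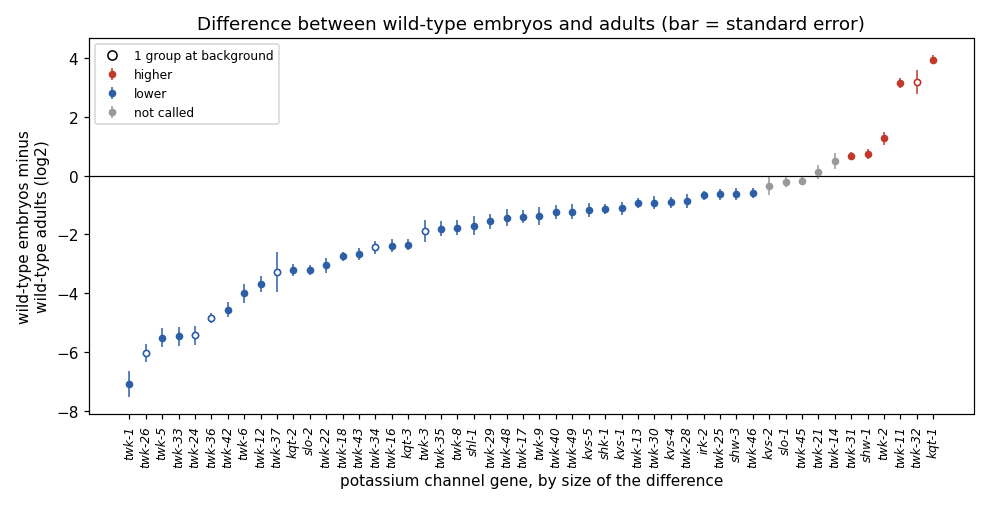
Wild-type embryos minus wild-type adults for the 50 tested potassium channel genes, ordered by size, in log2 units with standard error bars; colours mark calls and open circles a group at background. The 39 genes called lower reach -7.09 (twk-1) and the 6 called higher reach 3.95 (kqt-1), with the 75th percentile scaling.

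The largest of these differences were those of leak channel genes. twk-1 read 1.83% and 0.760% in embryos, 1 of these above background, and 169% and 154% in adults, a difference of -7.09 ± 0.45 (adjusted p = 1.11e-05). twk-5 read 2.33% and 2.47% against 116% and 102.96% (-5.51 ± 0.33), and twk-33 read 1.22% and 1.42% against 53.4% and 63.1% (-5.46 ± 0.32). twk-42 differed by -4.56 ± 0.26 and twk-6 by -4.0 ± 0.33.

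The knockout embryo values of these genes stand beside them here, and both comparisons share the wild-type embryo arrays. twk-42 rose in knockout embryos to 45.6% and 26.1% and twk-33 to 9.90% and 4.91%, whereas twk-5 was not called. twk-1 reached 3.53% and 1.93% in knockout embryos, at an adjusted p of 0.0479, close to the threshold. With wild-type embryos at background, twk-24 was at least 23.8-fold lower than in adults, twk-26 at least 16.1-fold, twk-36 at least 6.01-fold, twk-34 at least 5.33-fold and twk-37 at least 4.32-fold. twk-36 and twk-37 stayed at background in knockout embryos as well, so both were seen in adults of either genotype and in embryos of neither.

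Of the 6 members higher in embryos, kqt-1 led, at 48.8% and 42.4% in embryos against 2.70% and 3.20% in adults (3.95 ± 0.16, adjusted p = 1.69e-06). twk-11 read 33.6% and 33.0% against 3.61% and 3.85% (3.16 ± 0.18, adjusted p = 7.24e-06). twk-32 was at background in adults and at least 1.97-fold higher in embryos. The others were twk-2 (1.28 ± 0.23), shw-1 (0.75 ± 0.17) and twk-31 (0.68 ± 0.13). Members not called between the wild-type stages were kvs-2, slo-1, twk-14, twk-21 and twk-45. In this comparison too the tissue markers moved, with all 12 muscle and all 8 intestine genes lower in wild-type embryos (medians -3.86 and -3.68), whereas the germ line, oocyte and early embryo list held 6 higher and 4 lower genes (median 0.35) and the neuron list 3 higher and 9 lower (median -0.74). Their part in the result was not tested.

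Members with more than 1 measured probe allowed a check within genes. In embryos 22 members had more than 1 tested probe and for 0 of them did the probes differ in sign, with a median spread of 0.62 on the log2 scale between the highest and lowest probe. In adults the signs differed for 8 of 17 members with a median spread of 0.12. The 8 probes tested for shk-1 in embryos ran from 2.76 to 3.91, and the 4 of slo-2 from 3.17 to 3.33.

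**Figure D5:**
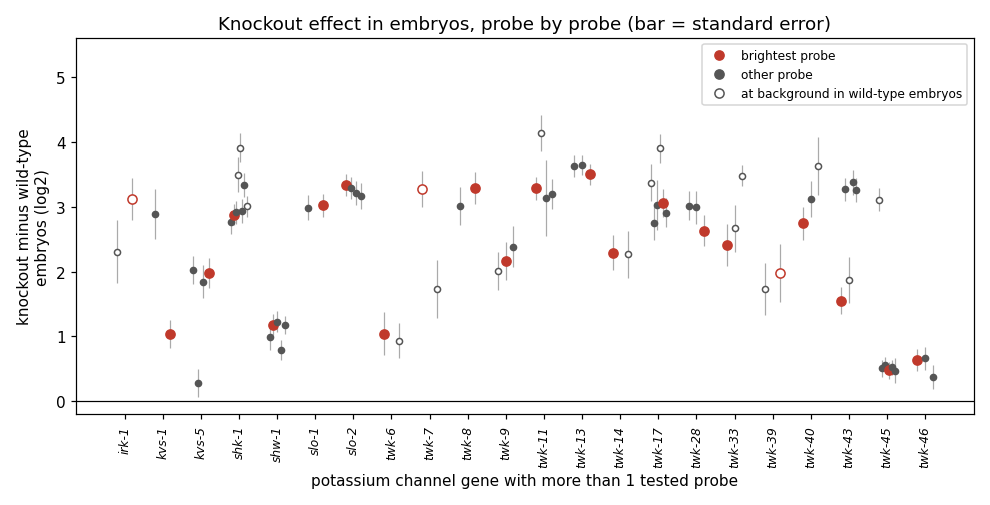
Knockout minus wild-type difference in embryos for every tested probe of the 22 potassium channel genes with more than 1, in log2 units with standard error bars; red marks the brightest probe, and open circles mark probes at background in wild-type embryos. Every probe lies above 0, and the widest spreads are those of twk-45, kvs-1, twk-43 and kvs-5.

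The 4 widest spreads between probes in embryos were those of twk-45, kvs-1, twk-43 and kvs-5. For twk-45 the dim probe A_12_P119361, at background in wild-type embryos, gave at least 1.97-fold, whereas the other 5 probes gave 0.47 to 0.57 on the log2 scale, and the brightest of these changed sign with median scaling and quantile normalization. For twk-43 the brightest probe gave 1.55 ± 0.21, and probes A_12_P112880, A_12_P132125 and A_12_P132126 gave 3.26, 3.37 and 3.26. For kvs-1 the brightest probe gave 1.04 and the other 2.89.

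kvs-5 had the sharpest disagreement. Its probe A_12_P115481 gave 0.28 ± 0.22 for the knockout in embryos, where the other 3 gave 1.84 to 2.03. The same probe was called higher in wild-type embryos than in wild-type adults, by at least 1.52-fold, where the other 3 were called lower, at -1.18 to -1.35. It was the one member called in both directions by different probes, so its stage difference depends on the probe chosen. For twk-11 the brightest probe is named after transcript F20A1.7a, and the other 3, named after F20A1.7c, also rose in knockout embryos, by 3.13 ± 0.59 and 3.20 ± 0.23 for those seen in the wild type and by at least 3.85-fold for the one that was not.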

How the data were processed

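Agilent 1-colour array files of 8 samples (Cy3, 0.2 µg labelled RNA) were used. The authors deposited scanner intensities, made with Agilent Feature Extraction 10.7.1.1 per the submitters' processing notes, and a table of log2 values. That deposited log2 table matched the processed signals scaled to the 75th percentile minus the wild-type mean of each stage, within 0.01 for 99.9974% of values, so its values are centred within stage. It served as an alternative for the genotype comparisons. With 2 arrays a group, it is their number that limits precision.

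From the deposited processed intensity (background-subtracted, per the file headers), spots flagged as outliers and control spots were left out, spots of a probe averaged, log2 taken and each array's 75th percentile subtracted. Probes were named through sequence names (31500) or transcript accessions (3674) in RefSeq's table for assembly WBcel235, and 8429 stayed unnamed. Genes entered a comparison if both arrays of either group had the probe well above background. One limma 3.58.1 fit in R 4.3.3 (4 group means, no covariates, two-sided, 4 residual and 2.39 prior degrees of freedom) gave differences, standard errors and Benjamini-Hochberg adjusted p-values over all genes tested. The steps were tested on simulated data. Python 3.11.15 with matplotlib 3.10.9 drew the figures.

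The members, gene lists and tests were chosen with earlier results of these data known. Genes were named by rule: all members of the small families, the 10 largest rises and up to 10 falls in embryos among members seen in both groups with the 5 largest bounds, the 5 smallest p-values in adults, and the 5 largest in each direction in the other comparisons. Other genes and probes named for a disagreement or a contrast were chosen after their values were seen. Alternatives were other scalings, normexp (offset 50, on the median foreground since the files hold no mean), filters, probe rules, priors, array weights, blocks and each array left out.

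Same-numbered arrays were checked for pairing: their deviations correlated at 0.0016 in embryos and -0.48 in adults, over 16832 genes, and nothing in the labels ties them.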

Additional observations from a re-analysis of the deposited data

Results flagged for a closer look

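The knockout effect on the potassium channel genes differed between embryos and adults by the test of the difference itself, the embryo effect minus the adult effect. Of 59 tested members, 46 were higher at an adjusted p under 0.05 in limma (78%, beside 39% of all genes tested). In the lower direction there were 2 (3.39%, beside 33.6%). The higher members include irk-1, twk-7, twk-20, twk-23 and twk-47, which were at background in every group but knockout embryos. Among members seen in all 4 groups, the largest such differences were those of twk-11 (3.90 on the log2 scale), twk-35 (3.70), kqt-2 (3.55), slo-2 (3.52) and twk-8 (3.33), and in the other direction twk-25 (-1.47) and twk-21 (-1.44). For twk-13, the only member called in adults, the difference was 1.00, and the call was lost with median scaling and with quantile normalization. The median of all genes in this comparison went from 0.10 to -0.98 with median scaling and to -0.06 with quantile normalization. The embryo and adult arrays lay on different slides, so a difference between stages and one between slides cannot be told apart. The labels give no age for the embryos, and the part of embryo age in the embryo effect was not tested.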

How the results depend on the processing

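In embryos the count of members called higher was 33 to 49 over the alternatives and the count called lower was 2 to 3, except for 5 with median scaling, 4 with quantile normalization and 4 with normexp correction. The adult count of 1 higher (twk-13) became 0 with the adult arrays fitted alone, and 0 to 1 with each array left out. It also became 0 with the replicate block, in which the twk-13 difference stayed at 2.49 with an adjusted p of 0.175. With the numbers crossed within stage, an alternative chosen after seeing the data, 0 were called in adults (2.49, adjusted p = 0.0800), 49 higher and 2 lower in embryos. The replicate block moved no other count of called members by over 1.5 times. The twk-13 difference in adults was 2.49 (adjusted p = 0.372) with the adult arrays alone and 2.38 to 2.61 with each array left out. These settings leave fewer residual degrees of freedom, and the size was 2.26 to 2.68 over all alternatives. Where 1 array was left out, the lone array of its group was taken to vary like the other groups. The difference between stages gave 4 members lower with median scaling, and for twk-13 it turned to -0.080 with that scaling. Between the wild-type stages, median scaling gave 10 members higher and 24 lower and quantile normalization 10 and 23. Shares of all genes called are not given for these alternatives, so their counts are not set against genes at large. The median over probes above background was a scaling chosen after seeing that the medians of all probes differed by genotype in embryos, and it changed no call of twk-13. With 2 arrays a group and several members near background in wild-type embryos, small differences and the size of rises from background are beyond these arrays.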

Other observations

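The genes next to twk-13 on chromosome V were read after its values were seen. In gene order, the 5 nearest measured genes on each side held 0 called genes of 10 in adults and 8 of 10 in embryos. Of all genes tested, 0.0666% were called higher and 0.0333% lower in adults, and 84.9% were called in embryos. The neighbour counts are thus near those shares. R04F11.2, the gene directly before twk-13, read 2566% and 2606% in wild-type adults and 4492% and 4461% in knockout adults, a difference of 0.79 ± 0.12 in limma (unadjusted p = 0.000523, adjusted p = 0.196). All 6 of its probes lay at 0.68 to 0.79 with knockout arrays above wild-type arrays, at adjusted p-values of 0.174 to 0.251. R04F11.5, the next but one, read 401% and 447% against 679% and 569% (0.55 ± 0.17, unadjusted p = 0.0172, adjusted p = 0.654). The other 8 neighbours lay between -0.26 and 0.18. In embryos neither R04F11.2 (-0.29) nor R04F11.5 (-0.42) was called by its brightest probe, and 2 of the 6 R04F11.2 probes were called lower, at adjusted p-values of 0.0232 and 0.0430 over all probes. seip-1 lies on the same chromosome, with 1569 protein-coding genes between it and twk-13, and 18 of the members lie on that chromosome.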
